A study of Homo sapiens with 4 samples.

Results

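Enzymes that add methyl groups to histone lysines, or remove them, were examined in OVCAR5, an established human ovarian cancer cell line. The set held 35 genes of the 56655 gene symbols counted. It was fixed by symbol and grouped by known activity, though chosen with earlier results of these data known. The classes were 11 demethylases, 8 proteins of the H3K4 methyltransferase group, 4 Polycomb genes, 6 H3K9 methyltransferases and 6 further SET-domain or H3K79 enzymes. The cells carried a stable lentiviral short hairpin RNA, either a non-targeting one from a pLKO.1 vector (shCtrl, n = 2 libraries) or one against FOXK2, which encodes a forkhead transcription factor (shFOXK2, n = 2 libraries), and both kinds of culture were selected with puromycin. The labels give an ascites source, a high grade serous tumour and the same passage range for all libraries. The study's legends name the hairpin in these shFOXK2 cells as shFOXK2-2, so both libraries stand for a single hairpin. The study asked how the transcriptome of these cells differs when FOXK2 is targeted. Polyadenylated RNA was sequenced and reads were counted per gene. The libraries of a group are described as biological duplicates, but nothing says that they came from separate cultures, so p-values measure the spread between these libraries, which may be technical.

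A lysine on the tail of a histone can carry up to several methyl groups, and the position decides how the mark is read. Methylation of H3K4 marks active promoters and enhancers, H3K36 and H3K79 methylation accompany transcription through gene bodies, and H3K9 and H3K27 methylation mark silent chromatin. Methyltransferases ("writers") mostly carry a SET domain, except DOT1L. Demethylases ("erasers") are either flavin-dependent amine oxidases (KDM1A and KDM1B) or Jumonji proteins that use iron, oxygen and 2-oxoglutarate. Polycomb repressive complex 2 (PRC2) writes H3K27 methylation and needs 3 core subunits, a catalytic EZH1 or EZH2 together with SUZ12 and EED.

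Library totals ran from 14284005 to 21950873 counts, and every one of the 35 genes was deep enough to be tested, with 51 to 5903 counts in a library. FOXK2 itself had 1796 and 1499 counts in the control libraries and 1086 and 1084 with its hairpin. As CPM, the count scaled to the effective size of its library, these were 80.5 and 93.4 against 76.4 and 59.6. Its log2 fold change was −0.36 (SE 0.25, edgeR adjusted p-value 0.257), so the targeted transcript was lower in both shFOXK2 libraries but not past the threshold. Separately from these libraries, the study reported less FOXK2 mRNA by qRT-PCR and less protein by Western blot in shFOXK2 OVCAR5 cells. Epithelial markers of the labelled cell type were present, with summed levels of 4070 to 5440 CPM over 6 genes, of which CDH1 was lower in shFOXK2 (log2 fold change −4.02). Of 5 serous ovarian markers, WT1 and SOX17 stayed under 1 CPM in every library, PAX8 and MUC16 were lower in shFOXK2 (log2 fold changes −0.88 and −5.76, adjusted p-values 0.0263 and 2.45e-05) and MECOM was higher (1.61, 0.00217). MUC16 was at 17.8 and 9.03 CPM in shCtrl and at 0 and 0.44 CPM in shFOXK2. The sum of the serous list was 37.0 and 32.3 CPM against 18.6 and 19.3 CPM. Of 7 fibroblast, 5 leukocyte and 4 endothelial markers, 5, 4 and 2 were under 1 CPM in every library. The summed levels of these lists were 19.1 to 20.6, 17.4 to 22.3 and 7.72 to 10.6 CPM in shCtrl and 13.7 to 16.5, 9.14 to 9.28 and 0.633 to 2.03 CPM in shFOXK2. PDGFRB, CD14, PECAM1 and CDH5 were called lower, and in shFOXK2 CDH5 had 0 counts in both libraries. The part of these transcripts in the results given here was not tested. In bulk RNA, fewer cells of a type and less RNA per cell cannot be told apart.

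Most demethylase transcripts were lower in shFOXK2 cells, the PRC2 core was higher, and the large H3K4 methyltransferases mostly did not pass the test. Of the 35 genes, 12 were called lower and 8 higher (edgeR quasi-likelihood test, adjusted p-value under 0.05), which is 57.1% of the set against 48.4% of the 16417 genes tested. By direction, 34.3% of the set were called lower, where 22.7% of all tested genes were, and 22.9% were called higher, where 25.7% of all were. The directions were unevenly spread over the classes, as demethylases made up 9 of the 12 genes called lower and 0 of the 8 called higher. Of the 20 called genes, 11 had an absolute log2 fold change of at least 1, with 5 lower and 6 higher. Without shFOXK2 replicate 2 the number called lower was 5, against 10 or 11 without any other single library, and the number called higher was 6 to 10.

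**Figure D1:**
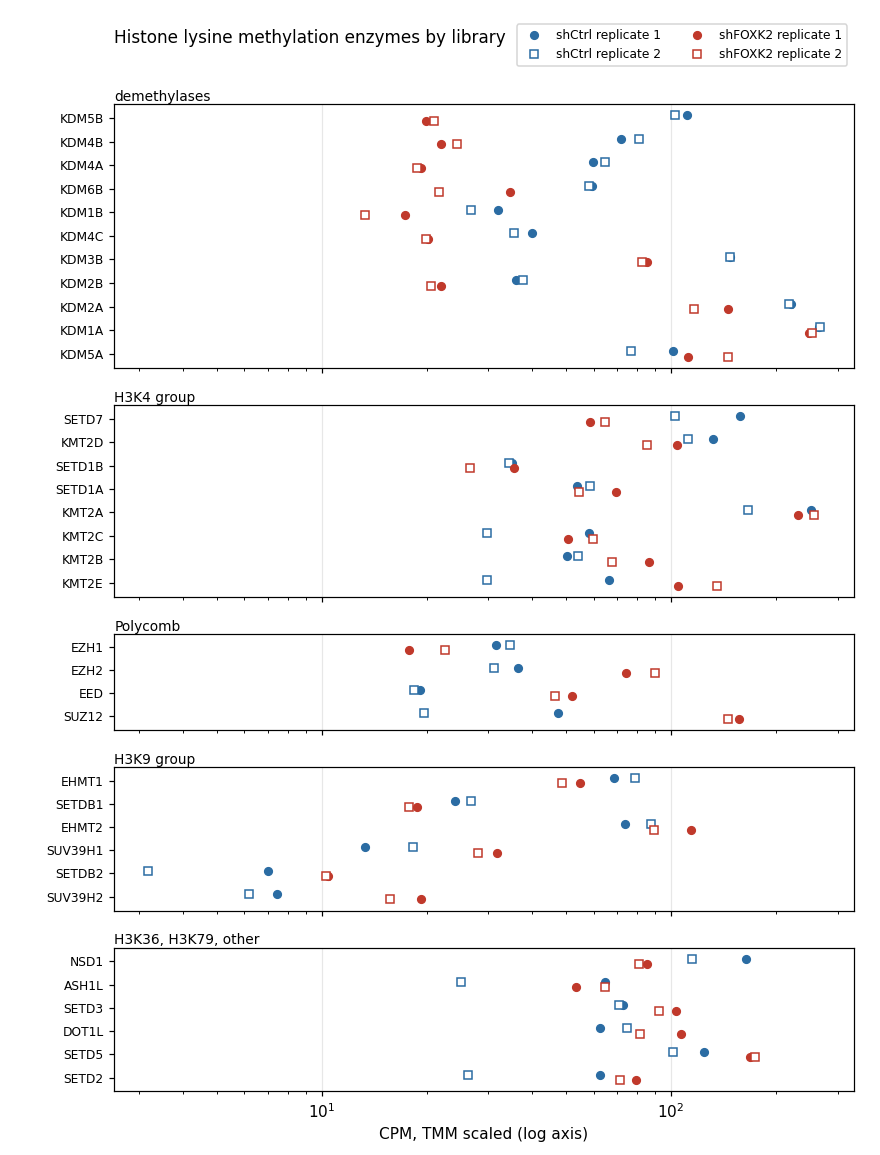
Level of each of the 35 enzymes in each library, as CPM scaled by the trimmed mean of M values on a log axis. Blue points are shCtrl and red points shFOXK2, filled for replicate 1 and open for replicate 2, and genes are ordered by fold change in each class. The red points lie left of the blue points for 10 of 11 demethylases and right of them for EZH2, EED and SUZ12.

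Separated groups were common: the pair of shFOXK2 values was wholly below the shCtrl values for 16 of the 35 genes and wholly above for 14, while the groups overlapped for 5. Over all tested genes the corresponding shares were 36.2% below and 39.2% above. Among the 15 genes that were not called, 10 still had groups that did not overlap, so the absence of a call does not show that these transcripts were equal. The median log2 fold change was −0.91 for the demethylases, 0.18 for the H3K4 group, 1.33 for the Polycomb genes, 0.63 for the H3K9 group and 0.45 for the remaining class, beside 0.04 over all tested genes.

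The FOXK2 binding motif TGTTTAC, or its reverse complement GTAAACA, was looked for on both strands in RefSeq promoter windows of GRCh38.p14, each 300 bases long and running from 250 bases before an annotated start to 50 bases after it. Windows were given for 33 of the 35 genes, with several starts for some, 45 windows in all. The motif occurred in 3 of the 45 (6.67%) and in 3.42% of 35116 windows of all genes. The 3 windows belonged to KDM2B, NSD1 and EZH1, which were called lower in shFOXK2. Of 379 tested genes with such a window, 31.7% were called lower and 18.7% higher, and 3 genes are too few to be set against these shares. The calls of KDM2B, NSD1 and EZH1 held in 9, 9 and 4 of 12 alternatives that kept all libraries, and in 2, 2 and 1 of the 4 that left one out. They are shown because they are the windows of called genes that hold the motif, which stands in capitals. The KDM2B stretch is one of 4 windows of that gene, on the minus strand at chr12:121580247-121580496, with the motif at −50 to −44 from the start. The NSD1 stretch is one of 5 windows, on the plus strand at chr5:177131548-177131797, with the motif at −88 to −82. For EZH1 the motif lies after the start, at 39 to 45, and 30 bases on the minus strand at chr17:42744991-42745020 are given.
KDM2B: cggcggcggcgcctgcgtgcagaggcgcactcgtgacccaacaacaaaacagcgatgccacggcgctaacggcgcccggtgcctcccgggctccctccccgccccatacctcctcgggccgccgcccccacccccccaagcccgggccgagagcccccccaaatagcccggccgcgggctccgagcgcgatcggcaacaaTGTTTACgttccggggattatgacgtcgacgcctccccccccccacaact
NSD1: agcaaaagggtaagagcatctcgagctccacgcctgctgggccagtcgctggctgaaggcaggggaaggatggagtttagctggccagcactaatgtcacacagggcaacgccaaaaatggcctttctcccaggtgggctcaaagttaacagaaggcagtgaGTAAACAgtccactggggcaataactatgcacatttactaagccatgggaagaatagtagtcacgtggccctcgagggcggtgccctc
EZH1: gggatggagggtgagtgaGTAAACAagcct

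A match of these letters is a description of the sequence, and binding at these windows was not analysed here. The study itself mapped FOXK2 binding in OVCAR5 cells by ChIP-seq. Among genes both bound and lower in shFOXK2, it named KDM3A, a demethylase outside the set, as a known FOXK2 target. The windows of the genes with the largest changes, such as KDM5B and SUZ12, did not hold the motif.

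KDM5B showed the largest fall of the set. It encodes a Jumonji enzyme that removes trimethylation from H3K4 and lies on the minus strand of chromosome 1 (202724495 to 202808487, hg38). KDM5B was at 111 and 103 CPM in shCtrl and at 19.9 and 20.9 CPM in shFOXK2, a fall to 0.191 of control. Its log2 fold change was −2.39 (SE 0.25, adjusted p-value 1.42e-05), and it stayed between −2.49 and −2.27 over the 12 alternatives that kept all libraries. KDM5A, the paralog with the same activity, went the other way without passing the test, at 101 and 76.6 CPM in shCtrl and 112 and 146 CPM in shFOXK2 (log2 fold change 0.53, adjusted p-value 0.0971).

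The KDM4 enzymes, which demethylate H3K9 and H3K36, fell together. KDM4A (chromosome 1, 43650149 to 43705518, plus strand) went from 59.6 and 64.7 CPM to 19.2 and 18.7 CPM. KDM4B (chromosome 19, 4969113 to 5153598, plus strand) went from 71.8 and 81.2 CPM to 21.9 and 24.4 CPM. For both genes the shFOXK2 libraries lay far below the controls and close to each other, and the log2 fold changes were −1.71 (SE 0.26, adjusted p-value 0.000154) and −1.72 (SE 0.26, adjusted p-value 0.000146). KDM4C fell less, from 39.9 and 35.4 CPM to 20.2 and 19.9 CPM (log2 fold change −0.91, SE 0.26, adjusted p-value 0.0105). In the GENCODE v44 annotation, 56.4% of the exon bases of the canonical KDM4A transcript overlap another gene, mostly a readthrough gene on the same strand, so its level depends on how such reads were counted.

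KDM6B (chromosome 17, 7834217 to 7854796, plus strand), which removes methylation from H3K27 and so opposes PRC2, fell from 59.5 and 58.2 CPM to 34.6 and 21.6 CPM. Its log2 fold change was −1.07 (SE 0.28, adjusted p-value 0.00676). The shFOXK2 libraries differed from each other, and without shFOXK2 replicate 2 the value was −0.8 (adjusted p-value 0.0901). KDM3B, an H3K9 demethylase, was nearly equal in the control libraries, at 147 ± 0.109 CPM, and fell to 83.7 ± 1.92 CPM (SD, n = 2 each; log2 fold change −0.81, adjusted p-value 0.0101).

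The H3K36 demethylases KDM2A and KDM2B fell by similar amounts, from 219 ± 2.17 to 131 ± 20.5 CPM and from 36.8 ± 1.34 to 21.2 ± 1.02 CPM (SD, n = 2 each). Their log2 fold changes were −0.74 and −0.79, with adjusted p-values of 0.0181 and 0.0206. Without shFOXK2 replicate 1 the adjusted p-value of KDM2B was 0.0564. KDM2B also recruits a variant Polycomb complex to unmethylated CpG islands. The flavin-dependent enzymes, both H3K4 demethylases, behaved differently from each other. KDM1A (LSD1), the most abundant member per kilobase of transcript, was at 265 and 267 CPM in shCtrl and 248 and 253 CPM in shFOXK2 (log2 fold change −0.09, adjusted p-value 0.772). The groups were narrowly separated, and the direction turned to 0.16 with the offset on A content described below. KDM1B (LSD2) fell from 31.9 and 26.7 CPM to 17.3 and 13.3 CPM (log2 fold change −0.94, adjusted p-value 0.0134).

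Of the 11 demethylases, 10 had both shFOXK2 libraries below both controls, as had 36.2% of all tested genes. In all, 9 of 11 were called lower (81.8%, against 22.7% of all tested genes). Without shFOXK2 replicate 2 the count was 4, because KDM1B, KDM2A, KDM2B, KDM4C and KDM6B no longer passed, with log2 fold changes of −0.93 to −0.62. It was 8 or 9 without any other library.

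**Figure D2:**
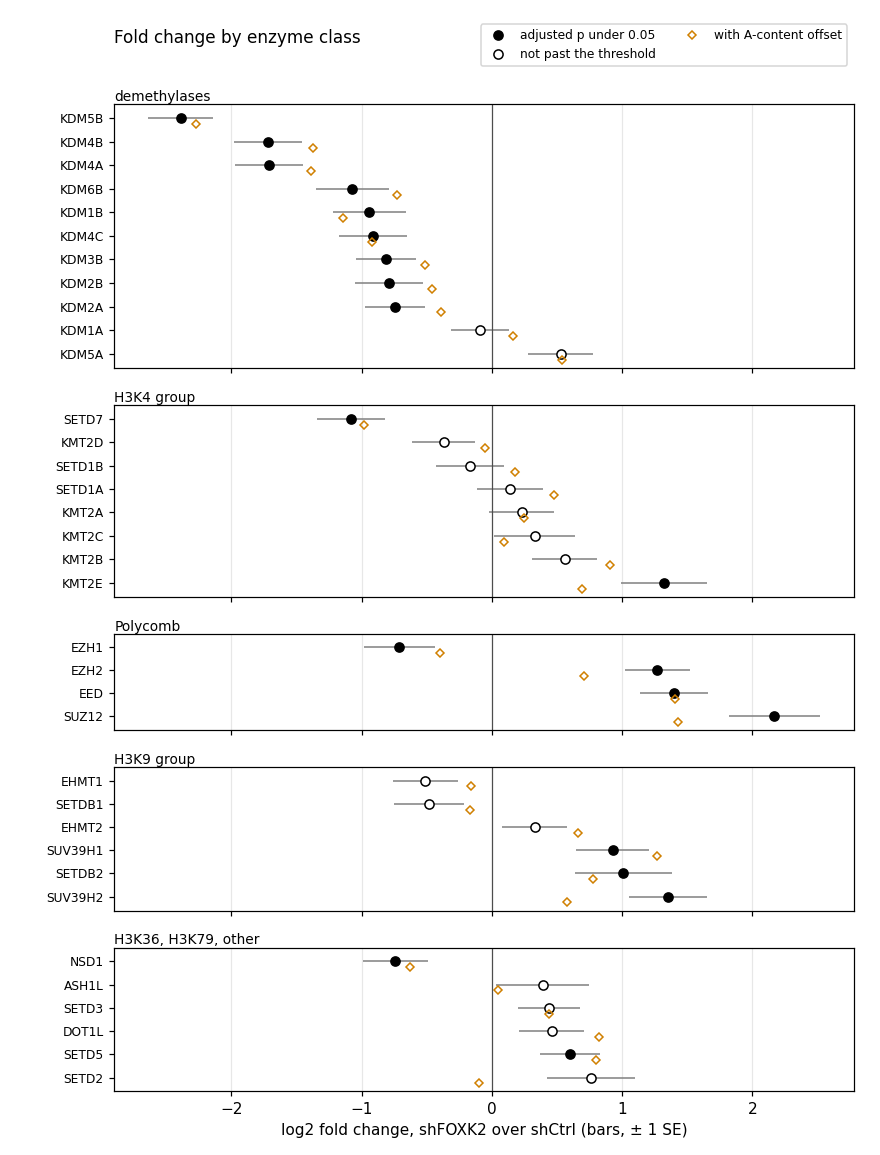
Log2 fold change of shFOXK2 over shCtrl for each enzyme, by class, with bars of 1 standard error. Filled points had an adjusted p-value under 0.05, open points did not, and orange diamonds give the value with the A-content offset. Filled points lie left of 0 for 9 demethylases and right of 0 for SUZ12, EED and EZH2.

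The core of PRC2 was higher in shFOXK2 cells. SUZ12, a scaffold subunit without catalytic activity (chromosome 17, 31937007 to 32001038, plus strand), had the largest rise of the set. It was at 47.4 and 19.6 CPM in shCtrl and at 156 and 145 CPM in shFOXK2 (log2 fold change 2.17, SE 0.35, adjusted p-value 0.00026). Both shFOXK2 libraries lay far above the controls, which themselves differed by 1.27 on the log2 scale. The log2 fold change of SUZ12 was accordingly 1.60 without shCtrl replicate 2 and 2.91 without shCtrl replicate 1, and it was called in both. EED, the subunit that binds trimethylated H3K27 (chromosome 11, 86201212 to 86278813, plus strand), was steadier, rising from 19.1 and 18.3 CPM to 52.1 and 46.4 CPM (log2 fold change 1.40, SE 0.26, adjusted p-value 0.000691). EZH2, the catalytic subunit that prevails in dividing cells (chromosome 7, 148807257 to 148884321, minus strand), rose from 36.5 and 31.2 CPM to 74.2 and 89.7 CPM (log2 fold change 1.27, SE 0.25, adjusted p-value 0.00117).

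EZH1, the alternative catalytic subunit (chromosome 17, 42700275 to 42745049, minus strand), went the other way. It fell from 31.5 and 34.6 CPM to 17.8 and 22.5 CPM (log2 fold change −0.71, SE 0.27, adjusted p-value 0.0414). This call was close to the threshold and was lost without shCtrl replicate 2, shFOXK2 replicate 1 or shFOXK2 replicate 2, at adjusted p-values of 0.0634, 0.216 and 0.0515. Per kilobase of canonical transcript, the summed level of EZH2, SUZ12 and EED was 29.2 ± 6.06 CPM per kb for the controls. After FOXK2 targeting it was 88.0 ± 0.42 CPM per kb (SD, 2 libraries each), 3.02 times as high. The sum was chosen after the values were seen and leaves out EZH1, which went from 7.13 to 4.35 CPM per kb.

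In the H3K4 methyltransferase group, 1 gene was called lower and 1 higher of 8 (25.0%, against 48.4% of all tested genes). With the A-content offset described below, 1 was called lower and 3 higher. Without that offset, the catalytic subunits of the COMPASS complexes, KMT2A to KMT2D, SETD1A and SETD1B, all missed the threshold. KMT2A (MLL1) was at 251 and 166 CPM in shCtrl and 232 and 257 CPM in shFOXK2, so the groups overlapped. KMT2D (MLL4), which methylates enhancers, was at 132 and 112 against 104 and 85.4 CPM (log2 fold change −0.37, adjusted p-value 0.225). SETD1A was at 53.9 and 58.7 against 69.7 and 54.3 CPM. KMT2B, KMT2C and SETD1B had log2 fold changes of 0.56, 0.33 and −0.17, with adjusted p-values of 0.0803 to 0.63.

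Without the offset, the calls in this group fell on proteins outside those complexes. SETD7, a monomethyltransferase of H3K4 and of many non-histone proteins (chromosome 4, 139495941 to 139606699, minus strand), fell from 157 and 103 CPM to 58.5 and 64.7 CPM (log2 fold change −1.08, SE 0.26, adjusted p-value 0.00444). KMT2E (MLL5), a SET protein without clear histone methyltransferase activity (chromosome 7, 104940943 to 105115019, plus strand), rose from 66.2 and 29.8 CPM to 105 and 135 CPM (log2 fold change 1.32, SE 0.33, adjusted p-value 0.00531). Its size rested on the control libraries, being 0.78 without shCtrl replicate 2 and 1.97 without shCtrl replicate 1.

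Of the 6 H3K9 methyltransferases, 3 were called higher and 0 lower, so that 50% were called, close to the 48.4% of all tested genes. The SUV39 pair, which trimethylate H3K9 in constitutive heterochromatin, was higher in shFOXK2. SUV39H2 (chromosome 10, 14878820 to 14904315, plus strand) rose from 7.44 and 6.17 CPM to 19.3 and 15.7 CPM (log2 fold change 1.35, SE 0.30, adjusted p-value 0.00245). SUV39H1 rose from 13.3 and 18.2 CPM to 31.7 and 28.1 CPM (log2 fold change 0.93, SE 0.28, adjusted p-value 0.0148). The latter call was lost without shCtrl replicate 1 (adjusted p-value 0.0866) or shFOXK2 replicate 1 (0.0621), and 25.0% of the SUV39H1 exon bases overlap a gene on the opposite strand.

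The G9a pair, EHMT1 and EHMT2, which write mono- and dimethylation of H3K9, was not called. EHMT2 (G9a) was at 73.9 and 87.8 CPM in shCtrl and 114 and 89.3 CPM in shFOXK2, and EHMT1 (GLP) had a log2 fold change of −0.51 (adjusted p-value 0.1). SETDB1, which silences retroelements with the corepressor TRIM28, was at 24.1 and 26.7 CPM against 18.8 and 17.7 CPM (log2 fold change −0.48, adjusted p-value 0.155). SETDB2 (chromosome 13, 49444274 to 49495003, plus strand) had the lowest level of the set. It went from 156 and 51 counts to 148 and 187 counts (6.99 and 3.18 CPM to 10.4 and 10.3 CPM), a log2 fold change of 1.01 with an adjusted p-value of 0.0391. That value was 0.49 (adjusted p-value 0.334) without shCtrl replicate 2 and 1.66 without shCtrl replicate 1.

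In the remaining class, NSD1, which dimethylates H3K36, fell from 163 and 115 CPM to 85.3 and 80.9 CPM (log2 fold change −0.74, SE 0.25, adjusted p-value 0.0255). Without shCtrl replicate 1 or shFOXK2 replicate 2 its adjusted p-value was 0.157 or 0.0825. SETD5 rose from 124 and 101 CPM to 168 and 174 CPM (log2 fold change 0.60, adjusted p-value 0.048), a call that remained without shCtrl replicate 1 and was lost without each other library. Its log2 fold change was 0.38 without shCtrl replicate 2.

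SETD2, the enzyme that trimethylates H3K36 and travels with RNA polymerase II, was at 62.8 and 26.2 CPM in shCtrl and at 79.4 and 71.6 CPM in shFOXK2 (log2 fold change 0.76, adjusted p-value 0.081). SETD2 was at 0.19 (0.638) without shCtrl replicate 2 and was called at 1.49 (0.000111) without shCtrl replicate 1. DOT1L, the only H3K79 methyltransferase, was at 62.6 and 74.8 against 107 and 81.7 CPM (log2 fold change 0.46, adjusted p-value 0.15). ASH1L and SETD3, an actin histidine methyltransferase, had log2 fold changes of 0.39 and 0.44 and were not called.

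Ratios of related genes within a library do not depend on the scaling between libraries, but they were taken without the A-content offset described below. Of 12 pairs, 9 had ratios of counts that did not overlap between the groups, a share close to the 75.4% of all tested genes whose own levels did not overlap. The difference of means was largest for KDM5B over KDM5A, whose log2 ratio was 0.13 and 0.42 in shCtrl and −2.49 and −2.80 in shFOXK2, a difference of −2.92. The log2 ratio of EZH2 over EZH1 was 0.22 and −0.15 in shCtrl and 2.06 and 1.99 in shFOXK2, a difference of 1.99. SETDB1 over SETDB2 differed by −1.60, although its control values of 1.78 and 3.06 were far apart. EHMT2 over EHMT1 was 0.11 and 0.15 in shCtrl and 1.05 and 0.87 in shFOXK2, so these paralogs shifted against each other by 0.83 although neither gene was called. With the offset, the log2 fold changes of EZH2 and EZH1 were 0.71 and −0.40, and those of SETDB1 and SETDB2 −0.17 and 0.78. These genes thus lay closer together than without it. KDM5B and KDM5A (−2.27 and 0.54) and EHMT2 and EHMT1 (0.66 and −0.16) changed little relative to each other.

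Among the other pairs, KDM1A over KDM1B rose by 0.86, KDM4A and KDM4B over KDM4C differed by −0.80 and −0.81, KMT2D over KMT2C by −0.77 and SETD1A over SETD1B by 0.31. The pairs KDM2A with KDM2B, KMT2A with KMT2B, and SUV39H1 with SUV39H2 overlapped. For each of the 9 pairs the exact permutation test, 2-sided, gave p = 0.333, which is the smallest value that 2 libraries against 2 allow.

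**Figure D3:**
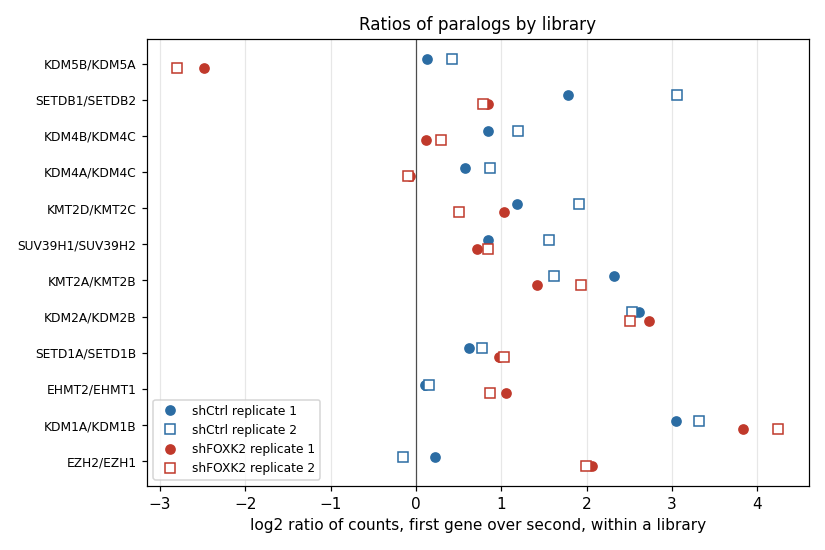
Log2 ratio of the counts of 2 related genes within each library, for 12 pairs ordered by the difference between groups. Blue points are shCtrl and red points shFOXK2, filled for replicate 1 and open for replicate 2. The ratio of EZH2 over EZH1 is near 0 in shCtrl and near 2 in shFOXK2, and that of KDM5B over KDM5A moves from above 0 to below −2.

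Levels were also summed by the mark the enzymes act on, per kilobase of canonical transcript, in groupings that were chosen after the values were seen. The H3K9 erasers KDM3B, KDM4A, KDM4B and KDM4C summed to 57.2 and 59.0 CPM per kb in shCtrl and to 25.5 and 25.4 in shFOXK2. The 6 H3K9 writers summed to 45.9 and 52.8 CPM per kb in shCtrl and 63.1 and 53.1 in shFOXK2. The ratio of writers over erasers for H3K9 was thus 0.849 ± 0.0656 in controls and 2.28 ± 0.271 with shFOXK2 (SD, 2 libraries each). For H3K27 the ratio of EZH1 plus EZH2 over KDM6B was 2.33 and 2.22 in shCtrl and 6.19 and 12 in shFOXK2. For H3K4, 7 writers summed to 59.8 ± 10.4 and 54.7 ± 2.63 CPM per kb, and the 4 erasers KDM1A, KDM1B, KDM5A and KDM5B to 112 ± 2.51 and 98.7 ± 2.82. The H3K4 ratios overlapped, at 0.588 and 0.474 in shCtrl and 0.585 and 0.524 in shFOXK2. The sums hold only genes of the set, with KDM6B as the only H3K27 eraser, so the ratios depend on which erasers were counted. Of further demethylases, KDM3A went from a mean of 59 to 27.1 CPM and JMJD1C from 16.3 to 107 CPM. Neither is in the sums. All of these are transcript levels, and histone methylation itself was not measured.

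**Figure D4:**
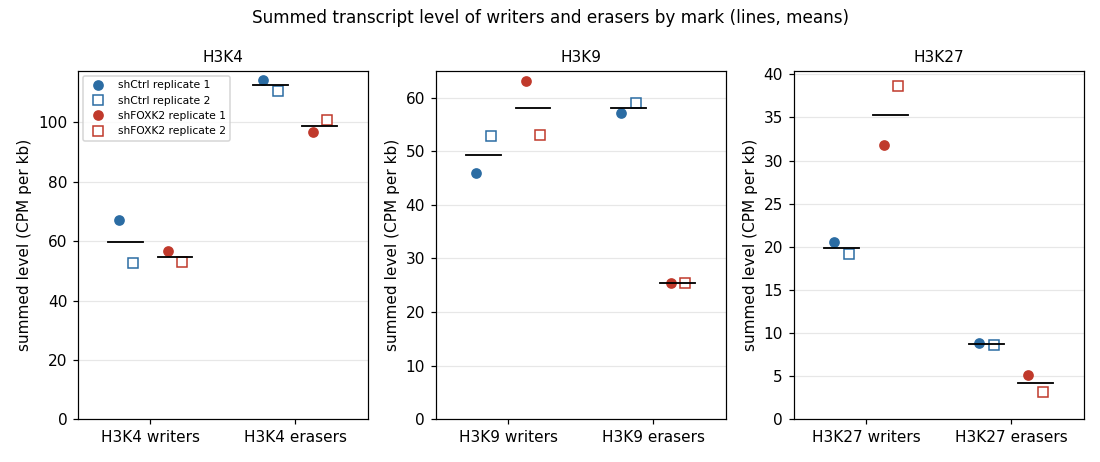
Summed level of writers and erasers of H3K4, H3K9 and H3K27 in each library, in CPM per kilobase of canonical transcript, with lines at the mean of 2 libraries. Blue points are shCtrl and red points shFOXK2. The 4 H3K9 erasers of the set drop from above 57 to below 26, while the H3K4 writers overlap between the groups.

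The order of the levels was compared per kilobase of transcript. In shCtrl the highest were KDM1A (86.2 CPM per kb), KDM2A (29.7), SETD3 (25.2), KDM3B (21.9) and EHMT2 (20.3), and the lowest were SETDB2 (0.82), SUV39H2 (2.22) and KMT2C (2.61). In shFOXK2 KDM1A was still highest, at 81.1 CPM per kb, and SUZ12 and EZH2 stood at 33.6 and 30.9. KDM5B, at 2.20 CPM per kb, was among the lowest, having been at 11.5 in shCtrl.

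The A content of the transcripts moved with these values. Over the 35 genes, A made up 19.1% to 32.2% of the canonical transcript, with a median of 27% beside 26.0% over all tested genes with a value. These 35 points share the 4 libraries, so the correlations are descriptions. Spearman's rho of A content was 0.41 with the log2 fold change between groups (Pearson's r 0.35). It was 0.79 with the log2 ratio of shCtrl replicate 1 over replicate 2 (Pearson's r 0.72), and −0.53 with that of shFOXK2 replicate 1 over replicate 2 (Pearson's r −0.56). A content thus went with differences inside both groups. The A-rich transcripts of ASH1L, SUZ12, SETD2, KMT2E and SETDB2 were 1.14 to 1.38 higher in shCtrl replicate 1 on the log2 scale. The Polycomb genes had a median A content of 29.7% and the demethylases 26.0%.

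With a smooth offset for A content, 9 genes of the set were called lower and 11 higher, where 23.0% and 28.2% of all tested genes were. Among the demethylases 7 stayed lower, KDM2A and KDM2B were at −0.39 and −0.46 (adjusted p-values 0.088 and 0.0634), and KDM5A was called higher at 0.54. The PRC2 core stayed higher, at 1.43 for SUZ12, 1.41 for EED and 0.71 for EZH2 (adjusted p-values 0.00152, 0.000599 and 0.0145), while EZH1 was at −0.40 (0.126). KMT2E was at 0.69 (0.028) and SUV39H1 at 1.27 (0.00117), but SUV39H2, with 31.7% A, was no longer called at 0.58 (0.0837), nor was SETDB2 at 0.78 (0.0508). KMT2B, SETD1A, EHMT2 and DOT1L, with 19.1% to 21.6% A, were called higher with the offset, at 0.91, 0.48, 0.66 and 0.82. SETD2 changed sign, to −0.10. The offset shifted the value of a tested gene by a median of 0.17. The median over all tested genes was 0.04 without the offset and 0.07 with it. The values with the offset are to be read beside these medians.

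**Figure D5:**
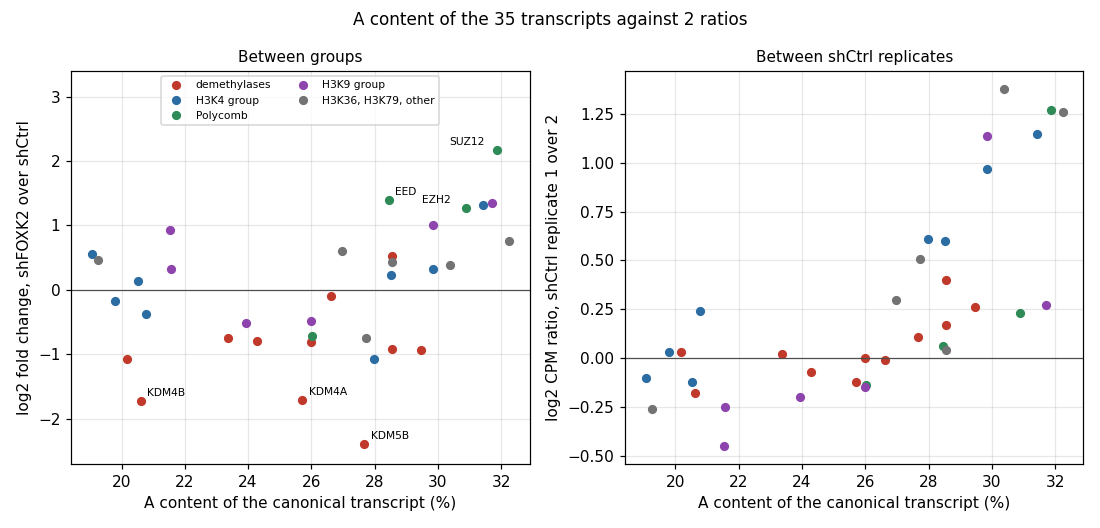
A content of the canonical transcript of the 35 enzymes against the log2 fold change between groups (left) and the log2 ratio of the 2 shCtrl libraries (right), coloured by class. On the right, the 5 genes with a ratio above 1 all have 29.8% A or more, and KDM5B, KDM4A and KDM4B lie below 0 on the left at 20.6% to 27.7% A.

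Other genes of the same pathways were counted from lists of known members and partners. Among 11 tested further demethylases, 3 fell (27.3%, against 81.8% of those in the set and 22.7% of all tested genes) and 1 rose. Their median log2 fold change was −0.54. With the A-content offset, 5 of these 11 were called lower and 1 higher, with a median of −0.75. The 11 demethylases of the set then had 7 lower, 1 higher and a median of −0.73, so the lists differed less. KDM3A, an H3K9 demethylase related to KDM3B, fell from 74.7 and 43.2 CPM to 29.0 and 25.1 CPM (log2 fold change −1.12, adjusted p-value 0.00672). KDM5C, a further paralog of KDM5B, had the largest fall of the list at −1.14 (adjusted p-value 0.00203), and JMJD1C rose by 2.71 on the log2 scale (adjusted p-value 3.51e-05), or by 1.36 with the A-content offset. Of 16 tested further methyltransferases, 1 fell and 5 rose, with MECOM highest at 1.61 (1.00 with the A-content offset) and SMYD3 lowest at −0.80. The SMYD3 call was lost with the A-content offset (−0.57, adjusted p-value 0.0543), the GC offset (0.0591) and the replicate block (0.0625), and without each library other than shCtrl replicate 1 (0.0715 to 0.0927). Without the offset, the shares called, 36.4% and 37.5%, were below the 48.4% of all tested genes.

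The lists of partner subunits are read against 22.7% lower and 25.7% higher among all tested genes, and for most of them the share called was below the 48.4% of all. Of 8 other PRC2 components (12.5% called), 1 was called, namely MTF2, which helps PRC2 find CpG islands and rose from 18.1 and 12.4 CPM to 58.4 and 81.7 CPM (log2 fold change 2.20, adjusted p-value 7.41e-05). The median of that list was −0.21. Of 17 PRC1 genes (5.88% called), 1 fell (PHC1, −1.49, adjusted p-value 0.0106) and 0 rose. PHC1 was at −0.95 (0.0514) without shFOXK2 replicate 2 and at −2.39 without shFOXK2 replicate 1. Among 14 COMPASS partners (21.4% called), 1 fell and 2 rose, with NCOA6 at −1.18 and BOD1L1 at 3.23. BOD1L1 was at 1.56 with the A-content offset and at 3.96 without shCtrl replicate 1. Of 11 H3K9 readers and partners (45.5% called), 1 fell (ATF7IP, −0.77) and 4 rose, most of all MPHOSPH8, a reader of methylated H3K9 in the HUSH complex, at 2.03 (1.17 with the A-content offset). The ATF7IP call was kept in 8 of 12 alternatives with all libraries, not under library size scaling, glmTreat, the stricter count filter or the replicate block, and without one library it remained only when shCtrl replicate 2 was left out (−1.22). ATF7IP was at −0.30 without shCtrl replicate 1. Of 8 LSD1 partners (62.5% called), 3 fell and 2 rose, with GSE1 at −1.55 and ZMYM2 at 1.22. ZMYM2 was not called with the A-content offset (0.50, adjusted p-value 0.107), with the GC offset (0.41, 0.151) or without shCtrl replicate 2 (0.64, 0.0825), and was at 1.95 without shCtrl replicate 1. Of 7 genes of the BAP1 deubiquitinase complex, in which FOXK proteins take part, 28.6% were called: 2 fell and 0 rose, FOXK1 most at −1.16 (adjusted p-value 0.00111).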

How the data were processed

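RNA-seq was analysed in 4 libraries, grouped and numbered by their titles. Per the study's methods and the submitters' processing notes, 50-base single-end reads were aligned to hg38 (GRCh38) with STAR 2.5.2 and assigned to genes with HTSeq. The files that the authors deposited hold these whole-number counts by gene symbol, not normalized. The strand setting and gene annotation are not given in the sources used here, so reads of overlapping genes may have been assigned to either gene or dropped.

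Genes were filtered with filterByExpr, libraries were scaled by TMM, and the groups were compared in edgeR 4.0.16 (R 4.3.3) by its quasi-likelihood test. P-values of the 16417 genes tested were adjusted after Benjamini and Hochberg, and those under 0.05 were called. Steps were tested on simulated data. SE is the absolute log2 fold change over the square root of F. Ratios used a prior count of 0.5. A floor of 3 counts is 0.137 to 0.21 CPM. Replicates were not copies: the chi-square per gene between them was 38.1 (shCtrl) and 27.9 (shFOXK2), far above sampling noise.

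The members and lists were chosen with earlier results of these data known. All 35 members are named. CPM per library is given for called members with an absolute log2 fold change of at least 1 and for fixed reference members of each class, with others added after their values were seen. Of each partner list, the largest called rise and fall are named, and KDM3A. Alternatives were DESeq2 1.42.0, other scalings and filters, glmTreat, offsets on A content, GC content or length (lowess, span 0.2), a replicate block and leaving out each library. Positions, exon overlaps and transcript properties came from GENCODE v44, which matched 36917 of 56655 symbols (65.2%), older symbols through RefSeq, and all 35 members. The smooth offset was set to 0 for genes without a value.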

Additional observations from a re-analysis of the deposited data

How the results depend on the processing

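The number of enzymes called lower (12) ran from 9 to 12 and that called higher (8) from 6 to 12 over the alternatives that kept all libraries, except that 3 and 1 passed glmTreat, which asks for a log2 fold change above 1. Without one library they ran from 5 to 11 and from 6 to 10. With 3 libraries, the lone sample of a group is assumed to vary like the others. Same-numbered samples did not deviate together (correlation −0.113). With the replicate block, 10 were called lower and 8 higher: EZH1, NSD1 and SETD5 were lost and SETD2 gained. A crossed pairing, tried only once the data had been seen, gave 12 and 10. FOXK2 stayed lower and uncalled in every alternative, from −0.46 to −0.03, and from −0.57 to −0.22 without one library.

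Moves of the class medians, whose alternatives were added after seeing the data, included the following. For the demethylases (−0.91) they were −0.99 by DESeq2, −1.01 with no filter, −0.73 with the A-content offset, −0.75 when the block was added to it, −0.77 for a GC offset and −0.78 with the length offset. For the Polycomb genes (1.33) they were 1.26, 1.23, 1.06, 1.06, 1.42 and 1.42 in the same order. The remaining class (0.45) was at 0.24 with the A-content offset. Leaving out single libraries gave medians from −1.07 to −0.80 for the demethylases, −0.13 to 0.26 for the H3K4 group, 1.19 to 1.37 for Polycomb, 0.43 to 0.72 for the H3K9 group and 0.27 to 0.57 for the remaining class. The H3K4 median thus turned without shCtrl replicate 2. For the demethylases and Polycomb genes, the medians by DESeq2 and with no filter lay inside these leave-one-out ranges. Those with the offsets lay outside them. Over all genes, DESeq2 and no filter shifted the value of a gene by a median of −0.08 and −0.10. The number of paralog pairs without overlap was 9 to 12, which fewer samples raise by construction.

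Directions turned only for genes that were not called. KDM1A was at 0.16 with the A-content offset, 0.16 with the block added, 0.23 with the GC offset and 0.05 with the length offset. SETD1B was at 0.18, 0.18 and 0.12 in the first 3 of these. SETD2 was at −0.10 and −0.06 with the A-content offset without and with the block, and KMT2A at −0.06 with the length offset. Without one library, KMT2A ran from −0.11 to 0.52, KMT2C from −0.15 to 0.86 and ASH1L from −0.21 to 1.2, each lowest without shCtrl replicate 2, and SETD1A from −0.08 (without shFOXK2 replicate 1) to 0.28. Of the other values of single enzymes, with all libraries 350 kept direction and side of the threshold, 40 became weaker and 20 stronger, and with one left out 116, 17 and 3. The cause was not tested. Offsets shifted the value of a gene by a median of 0.17 (A content), 0.13 (GC) and 0.07 (length), and no filter by −0.10. Depth limits SETDB2 most, with 51 counts in its lowest library.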
